A study of Mus musculus with 11 samples.

Results

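A set of transcripts of RNA handling had their lowest level in 3T3-L1 cells given linoleic acid (LA) for 12 h. They came from Ncl, Ptbp3, Rbms1, Larp4, Cnot6, Aff4 and Tug1, 7 of the 12428 genes measured. They were chosen because their level in LA at 12 h lay below that of the other groups, through probe sets that the platform annotation ties to 1 of these symbols alone. Their low level in LA at 12 h is therefore a description and is given with no test. As a set they were labelled RNA-binding genes, which fits the proteins of Ncl, Ptbp3, Rbms1 and Larp4 in the strict sense. Cnot6 encodes an enzyme that acts on RNA, Aff4 encodes a transcription factor scaffold and Tug1 encodes no protein, so they are called here the 7 genes low in LA at 12 h.

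3T3-L1 is a line of mouse embryo fibroblasts with the capacity to turn into adipocytes, and the labels describe these cultures as preadipocytes. The cells received the t10c12 isomer of conjugated linoleic acid (CLA) or, as the control, LA, and RNA was taken after 4, 8 or 12 h for hybridisation to Affymetrix arrays. The 6 groups comprised 11 arrays, with 1 LA array for 4 h and 2 for each of the later times, and 2 CLA arrays for each time. A further LA array at 4 h implied by the design text was not analysed here. The labels give no dose and no group without fatty acid, so every comparison of CLA with LA sets 1 fatty acid against another. All cultures share this clonal line, and the labels call the replicates biological without saying that they were separate cultures. The p-values therefore measure only the spread among the arrays, and that spread may be technical.

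The steps at which these genes act follow a transcript from its synthesis to its decay. Aff4 is a scaffold of the super elongation complex, which releases paused RNA polymerase II. Ptbp3 is a pyrimidine-tract binding protein that acts in alternative splicing, and Ncl (nucleolin) is an abundant nucleolar protein that binds ribosomal RNA precursors and messenger RNAs. Rbms1 binds AU-rich single-stranded nucleic acid, Larp4 is a La-related protein that binds poly(A) and its binding protein and protects messenger RNA, and Cnot6 is a catalytic deadenylase of the CCR4-NOT complex, which shortens poly(A) tails. Tug1 is a long non-coding RNA.

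The promoters are shown for Ncl, a nucleolar RNA-binding protein, and for Tug1, the transcript with no protein, so that the start regions of a coding and a non-coding member can be read side by side. Each is the stretch of 250 bases before the annotated start in RefSeq on GRCm38.p6, at chr1:86359456-86359705 (minus strand) and chr11:3648815-3649064 (minus strand), written 5′ to 3′ on the strand of the gene. Capitals mark the GC box, GGGCGG or its reverse complement CCGCCC, a motif that Sp1 family factors are known to bind.
Ncl: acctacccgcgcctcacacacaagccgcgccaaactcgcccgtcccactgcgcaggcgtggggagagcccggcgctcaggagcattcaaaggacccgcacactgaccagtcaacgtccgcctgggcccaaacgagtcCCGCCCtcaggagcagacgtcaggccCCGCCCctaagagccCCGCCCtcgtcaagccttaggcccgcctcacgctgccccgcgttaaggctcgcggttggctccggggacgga
Tug1: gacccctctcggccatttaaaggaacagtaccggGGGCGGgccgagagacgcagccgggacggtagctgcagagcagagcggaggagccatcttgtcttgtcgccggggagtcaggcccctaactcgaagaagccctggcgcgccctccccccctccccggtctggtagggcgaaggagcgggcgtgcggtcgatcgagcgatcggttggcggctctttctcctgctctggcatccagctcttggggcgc

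RefSeq promoters were matched for 6 of the 7 genes, all but Ptbp3, and Rbms1 had 2 annotated starts, which gave 7 promoters. Tug1, Cnot6 and Aff4 lie on chromosome 11, Ncl on chromosome 1, Rbms1 on chromosome 2 and Larp4 on chromosome 15. The GC box, searched on both strands, was present in 6 of the 7 promoters, all but that of Aff4, with the 2 of Rbms1 counted apart. Of 32851 mouse promoters of the same length, 32.7% held it. These 7 promoters were also rich in G and C, between 61.2% and 82.4% against a median of 52.4% over all promoters. Over measured genes with both LA arrays of 12 h below the other 9 arrays, the median was 61.6% (quartiles 54% and 69.2%). It was 59.6% where both lay above them and 59.2% for the rest. Among promoters with a GC content of at least 61.2%, the GC box was present in 78.8%. The 7 promoters held 19 to 38 CpG dinucleotides, against a median of 6 over all promoters. Shares and medians over all promoters include genes not measured here. The motif TATAAA, searched on both strands, was found in 0 of the 7 promoters and in 12.4% of all promoters, CCAAT was found in that of Cnot6 alone (33.8% of all promoters), and the E-box CACGTG in that of Aff4 alone (6.02%). These matches describe letters in a window and show no binding.

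Levels are given as normalised intensity, the deposited linear intensity after quantile normalisation over the 11 arrays. Background was taken as a level of 8.89 or less, which 95% of the values of 27 unspiked bacterial controls did not exceed. Differences are on the scale log2(normalised intensity + 1.84) with their standard error (SE) from 1 limma fit to all groups. Where a gene has several probe sets, that with the highest mean level stands for it. Intensities of different genes are not compared, because each probe set has its own response.

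Ncl, read by probe set 1415771_at, gave 899 and 929.9 in the LA arrays of 12 h. At 4 h the LA array gave 2364, with 2547 and 2509 in the CLA arrays. The LA arrays of 8 h gave 2096 and 2179, the CLA arrays 2549 and 2016, and the CLA arrays of 12 h 1896 and 1916. Both LA arrays of 12 h thus lay below all 9 others, and the CLA arrays of 12 h were the next lowest. LA at 12 h was lower than LA at 8 h by 2.33-fold (log2 difference −1.22 ± 0.09 SE) and lower than CLA at 12 h by 2.08-fold (log2 difference of CLA minus LA 1.06 ± 0.09). Since the arrays hold RNA of whole cultures, fewer cells that express a gene and less RNA per cell cannot be told apart, here and for each gene that follows.

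Ptbp3 (1455819_at) gave 286 and 283 in the LA arrays of 12 h, with 732 and 658 for CLA at that time. The LA array of 4 h gave 821 and the CLA arrays of 4 h 921 and 863. Values at 8 h were 624 and 717 for LA, then 862 and 687 for CLA. The LA arrays of 12 h lay apart from every other array, while LA at 8 h and CLA at 12 h overlapped. The LA level at 12 h was 2.34-fold below that at 8 h (−1.23 ± 0.12) and 2.43-fold below that of CLA at 12 h (1.28 ± 0.12).

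Rbms1 (1434005_at) gave 1072 and 1123 in the LA arrays of 12 h, with 2198 and 2151 for CLA at that time. The earlier LA levels were 2223 at 4 h, then 2167 and 2356 at 8 h. For CLA they were 1904 and 1864 at 4 h, then 2693 and 2173 at 8 h. Here the group next to LA at 12 h was CLA at 4 h, and the gap between these group means, 0.78 on the log2 scale, was the smallest of the 7 genes. The LA level at 12 h was 2.06-fold below that at 8 h (−1.04 ± 0.09) and 1.98-fold below that of CLA at 12 h (0.99 ± 0.09).

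Larp4 (1439010_at) gave 222 and 202 in the LA arrays of 12 h, with 609.5 and 539 for CLA at that time. At 4 h the LA array gave 516, with 634 and 605 in the CLA arrays. The LA arrays of 8 h gave 495 and 593, the CLA arrays 669 and 519. The arrays of LA at 8 h, CLA at 8 h and CLA at 12 h overlapped, and the gap from LA at 12 h to the next group, LA at 4 h, was 1.28 on the log2 scale, the largest of the 7 genes. Larp4 had the largest difference between the fatty acids at 12 h among the 7, with CLA above LA by 2.70-fold (1.43 ± 0.14), and LA at 12 h was 2.55-fold below LA at 8 h (−1.35 ± 0.14).

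Cnot6 (1426682_at) gave 518 and 517 in the LA arrays of 12 h, with 1105 and 1032 for CLA at that time. Earlier, LA gave 1513 at 4 h, followed by 1103 and 1213 at 8 h. CLA gave 1381 and 1425 at 4 h, followed by 1386 and 1106 at 8 h. Levels of Cnot6 in the 4 h arrays were above those of the LA arrays of 8 h and the CLA arrays of 12 h, so that its 5 other group means spanned 0.50 on the log2 scale, the widest span of the 7 genes. LA at 12 h was 2.23-fold below LA at 8 h (−1.16 ± 0.11) and 2.06-fold below CLA at 12 h (1.04 ± 0.11).

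Aff4 (1450031_at) gave 927 and 911 in the LA arrays of 12 h, with 1811 and 1802 for CLA at that time. The LA array of 4 h gave 1854 and the CLA arrays of 4 h 1908 and 2023. Values at 8 h were 1761 and 1919 for LA, then 2159 and 1754 for CLA. Its 5 other group means spanned only 0.12 on the log2 scale, close to the SD of 0.11 between replicates, so their order is not resolved. LA at 12 h was 1.998-fold below LA at 8 h (−0.999 ± 0.09) and 1.96-fold below CLA at 12 h (0.97 ± 0.09).

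Tug1 (1415708_at) gave 668 and 604 in the LA arrays of 12 h, with 1349 and 1253 for CLA at that time. The earlier LA levels were 1301 at 4 h, then 1241 and 1408 at 8 h. For CLA they were 1657 and 1573 at 4 h, then 1491 and 1376 at 8 h. Its highest group was CLA at 4 h, and LA at 8 h overlapped CLA at 8 h and at 12 h. LA at 12 h was 2.08-fold below LA at 8 h (−1.05 ± 0.09) and 2.04-fold below CLA at 12 h (1.03 ± 0.09).

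**Figure D1:**
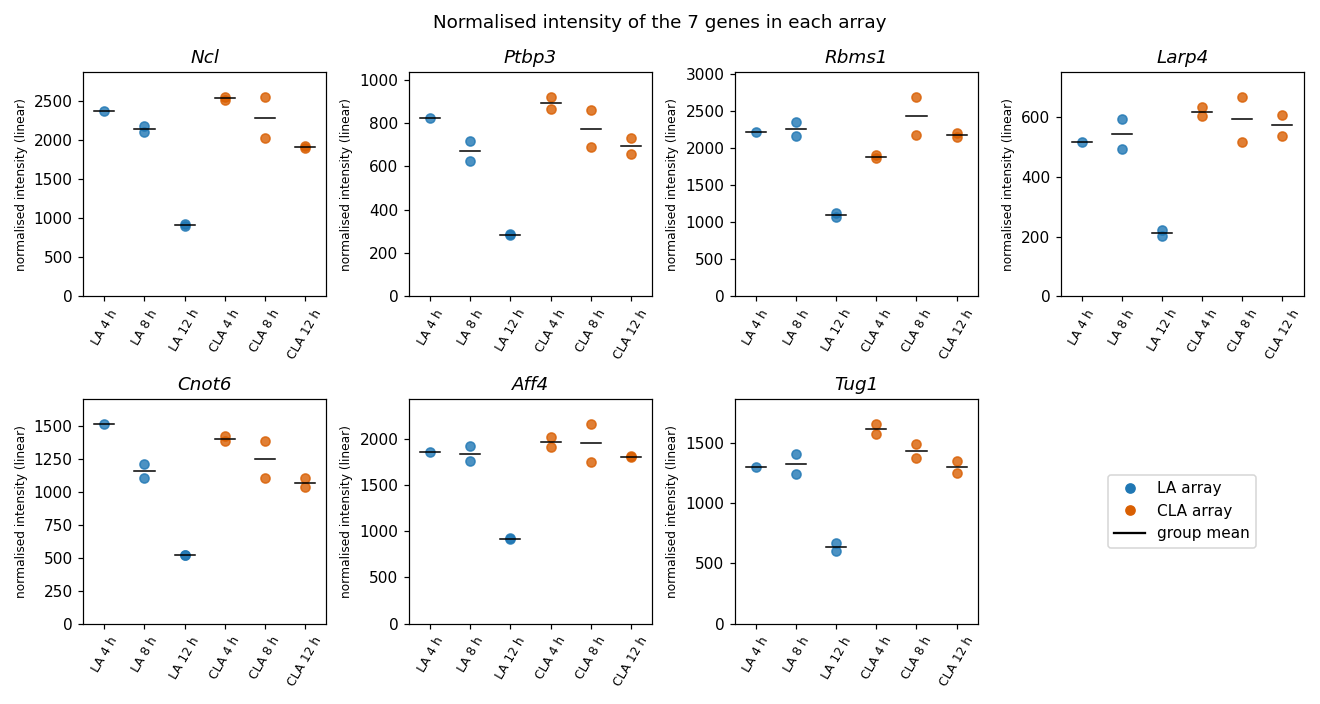
Normalised intensity (linear axis from 0) of each of the 7 genes by group, LA in blue and CLA in orange, each point 1 array and each bar the group mean. In every panel the 2 LA arrays of 12 h lie below the other 9 arrays.

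In all 7 genes both LA arrays of 12 h lay below the other 9 arrays, which the choice of the genes fixed. Of all genes measured, 1585 of 12428 (12.8%) had this pattern and 3132 (25.2%) had the opposite pattern, with both LA arrays of 12 h above the other 9. The median log2 difference of the 7 genes between CLA and LA at 12 h was 1.04, against −0.15 over all genes, and that between LA at 12 h and LA at 8 h was −1.16, against 0.13. Between 1.64% and 5.15% of all genes had a larger CLA minus LA difference at 12 h than the individual members, and between 1.79% and 4.61% had a lower LA 12 h minus 8 h difference. Over all genes, 18.8% were called at an adjusted p under 0.05 between CLA and LA at 12 h and 22.3% between LA at 12 h and 8 h. These shares are background to members chosen on the same arrays, and nothing is read from them. As a description, the gap between LA at 12 h and the next group was 0.78 to 1.28 on the log2 scale, the span of the other 5 group means 0.12 to 0.50 and the SD between replicates 0.09 to 0.16. The gap is what the choice of the genes used.

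**Figure D2:**
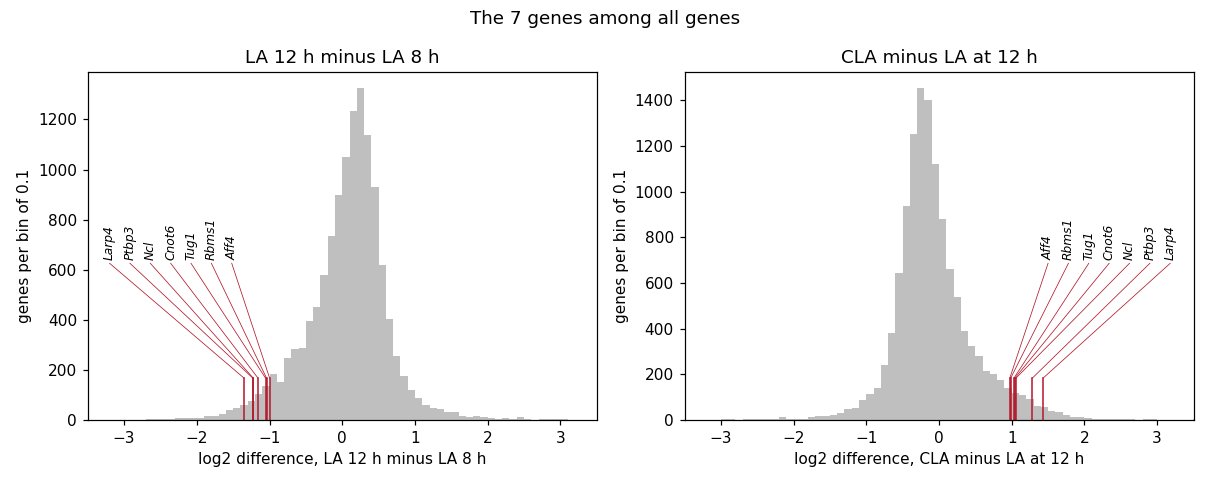
Distribution of the log2 difference over all 12428 genes, LA at 12 h minus LA at 8 h on the left and CLA minus LA at 12 h on the right, as the number of genes per bin of 0.1, with the 7 genes as red lines. The 7 genes lie between −1.35 and −0.999 on the left and between 0.97 and 1.43 on the right, in the tails but not at the ends of the distributions.

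The platform has 23 probe sets for the 7 genes, of which 21 passed the filter on dim probe sets, and 19 of these 21 had both LA arrays of 12 h below the other 9 arrays. All 4 probe sets of Cnot6, both of Rbms1 and all 3 of Larp4 showed the pattern. Of the 5 probe sets of Ncl, 4 showed it and the other, 1442404_at, was at background in 8 of 11 arrays. For Aff4, 2 of 3 showed it, and 1458959_at was at background in 7 of 11 arrays.

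The 2 exceptions past the filter were in Ptbp3 and Tug1. For Ptbp3, 1424083_at lay just inside the rule, with the lowest other array 0.04 above the higher LA array of 12 h on the log2 scale, and 1424084_at lay just outside it, with the gap at −0.03. Their differences between CLA and LA at 12 h were 0.75 and 0.69. For Tug1, 1426771_at read 199.96 and 207 in the LA arrays of 12 h, with 160.0 and 238 for CLA at that time. At 4 h the LA array read 186 and the CLA arrays 272 and 276. The LA arrays of 8 h read 259 and 214, the CLA arrays 204 and 249. Both CLA arrays of 4 h lay above the other 9, the LA array of 4 h lay below the LA arrays of 12 h, and LA and CLA arrays overlapped at 8 h and at 12 h. Its difference between CLA and LA at 12 h was −0.06, against 1.18 for 1456398_at and 1.03 for 1415708_at, so the probe sets of Tug1 disagreed. Which stretches of the transcript these probe sets read was not analysed here.

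**Figure D3:**
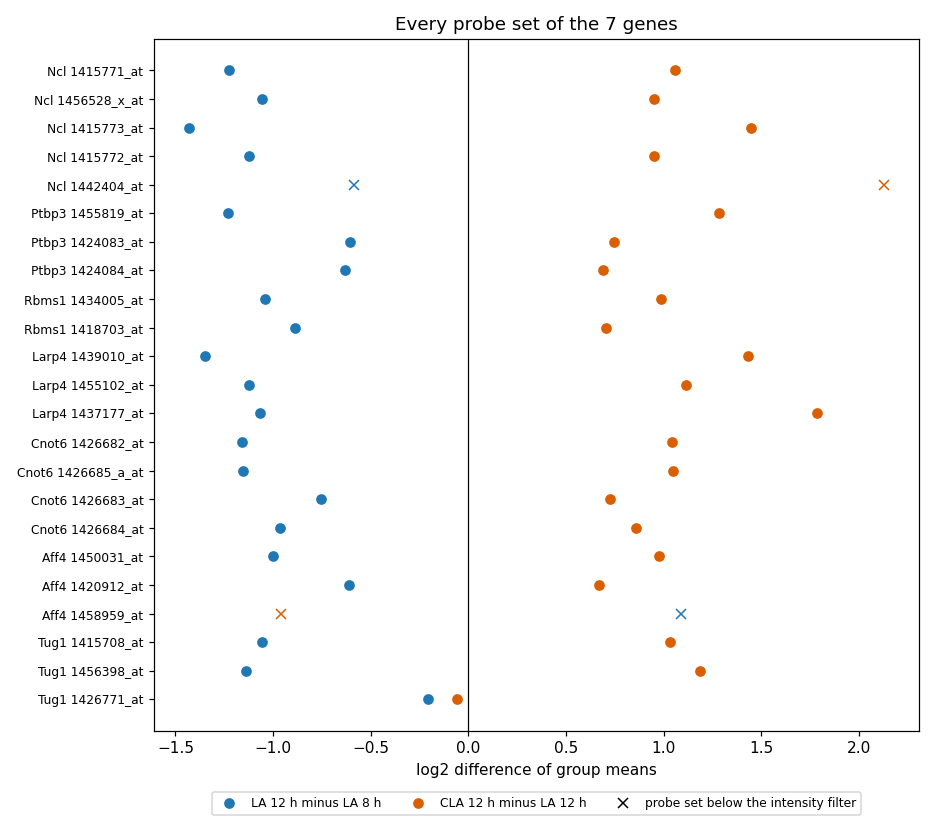
Log2 difference of group means for each of the 23 probe sets of the 7 genes, LA at 12 h minus LA at 8 h in blue and CLA minus LA at 12 h in orange, with crosses for the 2 probe sets below the filter. Blue points lie left of 0 and orange points right of 0, except for Tug1 1426771_at, whose difference between CLA and LA is −0.06, and for the cross of Aff4.

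The direction of the ratio in the authors' deposited table is not named in its header and was taken as CLA over LA. On that reading, the authors' deposited table gave 12 h ratios of 2.04 for Ncl, 2.50 for Ptbp3, 1.89 for Rbms1, 2.86 for Larp4, 2.23 for Cnot6, 2.12 for Aff4 and 2.22 for Tug1, each for the probe set with the highest mean. These come from the same arrays combined by the authors and are no separate measurement. In the authors' deposited table the ratio for Tug1 1426771_at at 12 h was 1.26.

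The comparisons that do not use the LA arrays of 12 h could be tested. Between CLA and LA at 4 h, differences of the 7 genes by their brightest probe sets ran from −0.24 to 0.31. Of these, 5 were above 0 (6 after median scaling, 2 with values as deposited) and 0 were called, against 0.298% of all genes. The smallest p was that of Tug1 (0.31 ± 0.11, adjusted p = 0.391), and Rbms1, with the lowest value, had −0.24 ± 0.11 (adjusted p = 0.589). Other probe sets went beyond this range in both directions. Ncl 1415773_at read 474 in LA and a mean of 896 in CLA, Tug1 1426771_at 186 and 274, and Rbms1 1418703_at 1386 and 1100. With probe sets averaged per gene, Ncl stood at 0.41 (limma, adjusted p = 0.442) and Ptbp3 at 0.36 (adjusted p = 0.608). At 8 h all 7 differences by the brightest probe sets were above 0, from 0.08 to 0.20. Of these 7, 0 were called, against 0% of all genes, and only 2 were above 0 after median scaling or without CLA replicate 1 of 8 h. The smallest p at 8 h was that of Ptbp3 (0.20 ± 0.12, adjusted p = 0.986). Here too other probe sets lay outside the range on both sides, as Larp4 1437177_at with means of 74.2 in LA and 143 in CLA. Tug1 1426771_at had means of 236 and 226. At an unadjusted p under 0.05 in limma, 1 of the 7 genes passed at 4 h and 0 at 8 h, against 1132 and 491 of all genes. The 95% intervals, not adjusted over genes, reached 0.25 to 0.37 on either side of the difference at 4 h and 0.20 to 0.30 at 8 h. Differences of that size between the fatty acids were not detectable. A call after adjustment can need a larger difference, since Tug1 at 4 h passed its own interval and was not called.

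Before 12 h in LA, from 4 h to 8 h, 3 of the 7 genes were above 0 by their brightest probe sets and 4 below, from −0.39 to 0.07. With median scaling 5 were above, and 0 with values as deposited or without LA replicate 2 of 8 h. By limma 0 were called, against 12.1% of all genes. Other probe sets moved more and in both directions. Tug1 1456398_at read 591 at 4 h and a mean of 347 at 8 h, and Cnot6 1426685_a_at 852 and 596. Tug1 1426771_at read 186 and 236, and Ncl 1415773_at 474 and 631. At an unadjusted p under 0.05 in limma, 1 of the 7 passed, against 3326 of all 12428 genes. That gene was Cnot6, with −0.39 ± 0.13 (adjusted p = 0.0771), which became a call without CLA replicate 1 or 2 of 8 h, at an unchanged difference. After median scaling it was −0.06 (adjusted p = 0.852), and over all alternatives it lay between −0.48 and −0.06. In CLA, from 4 h to 8 h, Rbms1 rose by 1.28-fold (0.36 ± 0.09, adjusted p = 0.0265), with both 8 h arrays above both 4 h arrays, and it was the 1 gene called of the 7 (12.9% of all genes). The other 6, by their brightest probe sets, were between −0.21 and −0.01. Of these, 1 was above 0 after median scaling and 3 with values as deposited or without CLA replicate 2 of 8 h. Other probe sets went beyond this range, as Cnot6 1426684_at with means of 376 at 4 h and 268 at 8 h, and Ptbp3 1424084_at with 51.9 and 56.6. The rise of Rbms1 was 0.21 without CLA replicate 1 of 8 h and 0.51 without replicate 2. The call was lost under 9 of 22 alternatives, among them scaling by the median (0.39), leaving out CLA replicate 1 of 8 h, and leaving out CLA replicate 1 (0.38) or 2 (0.35) of 4 h.

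The LA levels differed most from 8 h to 12 h. In CLA over that interval, all 7 differences by the brightest probe sets were below 0, from −0.25 to −0.04. The count below 0 was 6 of 7 after median scaling or without CLA replicate 2 of 12 h, and 3 of 7 without CLA replicate 1 of 8 h. Their median was −0.15 against 0.02 over all genes. Over all their probe sets past the filter, the differences ran from −0.45 (Cnot6 1426685_a_at) to −0.04 (Tug1 1456398_at). None of the 7 was called by limma, against 0.402% of all genes. At an unadjusted p under 0.05, 1 of the 7 passed, against 1274 of all 12428 genes. That gene was Ncl (−0.25 ± 0.09, adjusted p = 0.381), whose difference was −0.42 without CLA replicate 2 of 8 h (adjusted p = 0.0422) and −0.08 without replicate 1. The corresponding differences in LA were −1.35 to −0.999. Both sets of differences are set side by side and their contrast was not tested, because the LA arrays of 12 h chose the genes.

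**Figure D4:**
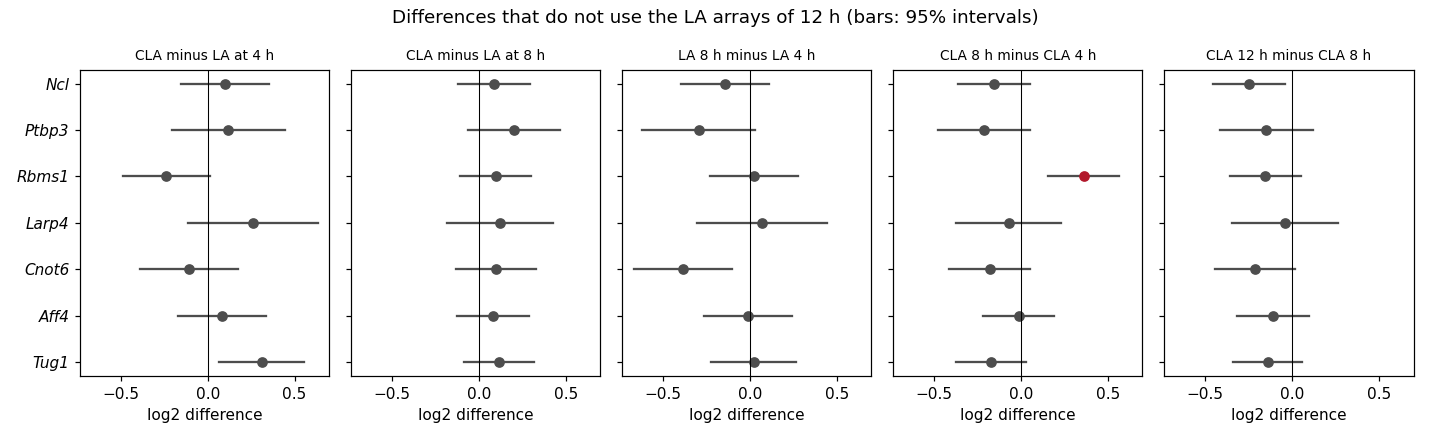
Log2 differences of the 7 genes with 95% intervals from the limma fit, in the 5 comparisons that do not use the LA arrays of 12 h. The red point is the 1 called difference, Rbms1 from 4 h to 8 h in CLA (0.36), and the others were not called.

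Replicates differed in all 7 genes in the same direction at 8 h and in mixed directions at the other times. In CLA at 8 h, replicate 1 was above replicate 2 in all 7 genes, by 0.12 to 0.37 on the log2 scale, while the median over all genes was −0.12. In LA at 8 h, replicate 2 was above replicate 1 in all 7, by 0.06 to 0.26. The median of replicate 1 minus replicate 2 over all genes was 0.01 there. Replicate 1 minus replicate 2 ran from −0.08 to 0.09 in CLA at 4 h (5 of 7 above 0), from −0.07 to 0.14 in LA at 12 h (5 of 7) and from −0.02 to 0.18 in CLA at 12 h (6 of 7). The gaps at 8 h are as wide as many of the tested differences.

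Measures of the whole array are given beside these levels. The deposited medians of the LA arrays of 12 h, 11.6 and 10.6, were the lowest of all, against 12.8 to 20.1 in the other 9. The GAPDH 3′ to 5′ ratio, a sign of RNA quality, was 0.983 and 1.18 in them and 0.884 to 1.077 in the others, so that 1 of them lay within the range of the others. The actin ratio was 1.55 and 1.59, within the range of 1.31 to 1.75 in the others. An 18S ribosomal RNA control gave 593 and 2866 in the LA arrays of 12 h, against 316 to 1755 in the others. Values at or below 0 made up 21.1% and 21.5% of them, the highest shares, against 18.7% to 20.5% in the others. Of the preadipocyte and fibroblast markers, 10 of 11 were above background in every array (Cd34 was at background in every array), with a summed intensity of 41049 to 41204 in LA at 12 h and 39392 to 42769 elsewhere. Of the adipocyte markers, 4 of 9 were above background in every array and Cidec, Retn and Lep were at background in every array. Their summed intensity was 4175 to 4403 in LA at 12 h against 5067 to 7268 in the other arrays, with both LA arrays of 12 h below all others in 2 of the 9 markers and above all others in 2. Macrophage markers, with 4 of 9 above background in every array and Ptprc and Itgam at background, summed to 701 to 768 in LA at 12 h and 588 to 1752 elsewhere. Endothelial markers, with 0 of 7 above background in every array and Pecam1, Vwf, Tie1 and Emcn at background in all, summed to 27.1 to 35.3 in LA at 12 h and 10.7 to 35.7 elsewhere. Skeletal muscle markers, with 2 of 6 above background in every array and Myog and Myh3 at background, summed to 114 to 146 in LA at 12 h and 44.1 to 130.3 elsewhere, with 2 of the 6 above all other arrays in both LA arrays of 12 h. The part of the low array medians, GAPDH ratio and 18S control in the low level of the 7 genes was not tested. Nor was that of the values at or below 0 or of the adipocyte and muscle markers.

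Genes of the same functions, with the 7 left out, were drawn from 6 lists of 127 genes, of which 112 were measured. The lists were chosen with earlier results of these data known. Their tests at 12 h use the same LA arrays on which the 7 genes were chosen, so they are no separate support. The genes named from each list were picked by their small p between CLA and LA at 12 h, the p-value then printed. Between CLA and LA at 12 h, 17 of the 112 were higher with CLA and 10 lower by limma at an adjusted p under 0.05, 24.1% in all against 18.8% of all genes (9.46% higher and 9.33% lower). From 8 h to 12 h in LA, 12 were called higher and 20 lower, 28.6% against 22.3% of all genes (11% higher and 11.4% lower). Both LA arrays of 12 h lay below the other 9 in 25 of the 112 and above them in 31, against 12.8% and 25.2% of all genes. By list, 3 were below and 13 above of the 25 nucleolar factors, 8 and 2 of the 18 sequence-specific binding proteins, 3 and 2 of the 13 La-related and poly(A)-binding proteins, 4 and 7 of the 23 CCR4-NOT and decapping genes, 3 and 6 of the 22 elongation genes, and 4 and 1 of the 11 long non-coding RNAs. At 4 h, at 8 h and from 8 h to 12 h in CLA, 0 of the 112 were called by limma. Of all genes, 0.298%, 0% and 0.402% were called. At an unadjusted p under 0.05 in limma, 8, 6 and 17 of the 112 passed, against 1132, 491 and 1274 of all 12428 genes. The split of calls depended on the scaling. Between the fatty acids at 12 h it was 16 higher and 5 lower after median scaling, and 30 and 0 with values as deposited. In LA from 8 h to 12 h it was 3 higher and 17 lower after median scaling, and 0 and 28 as deposited. Of the genes named from these lists, the calls at 12 h of Nop58, Qk, Pum2, Mbnl1 and Mllt3 held under all 22 alternatives, though Pum2 was at 0.504 with the mean of its probe sets.

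Among nucleolar and ribosome biogenesis factors, the class of Ncl, 3 of 25 were higher with CLA at 12 h, 4 were lower and 18 were not called, with a median of −0.21. Npm1, the nucleolar chaperone nucleophosmin, was 2.15-fold higher (1.105 ± 0.19, adjusted p = 0.00392), at 1603 ± 323 (SD, n = 2) in LA and 3458 ± 771 in CLA. Nop58, a core protein of box C/D small nucleolar ribonucleoproteins, was 2.53-fold higher (1.34 ± 0.23, adjusted p = 0.00395). Its partner in the same particle, Nop56, was lower with CLA (−0.47 ± 0.09, adjusted p = 0.00612), at 1141 ± 44.2 in LA and 822 ± 39.6 in CLA. In LA from 8 h to 12 h, Nop58 fell by 1.22 (adjusted p = 0.00496) and Npm1 by 0.87 (adjusted p = 0.00948), and Nop56 rose by 0.39 (adjusted p = 0.0123). The call for Nop56 at 12 h was lost with values as deposited (−0.16) and without LA replicate 2 of 12 h (−0.43). That for Npm1 at 12 h was lost with no filter on dim probe sets (limma, adjusted p = 0.0567). From 8 h to 12 h in LA, the call for Npm1 was lost with no filter (adjusted p = 0.0871) or no trend (0.0634), and that for Nop56 with values as deposited (0.15). In LA over time, the calls were lost without LA replicate 2 of 8 h for Npm1 (−0.85), Nop58 (−1.11) and Nop56 (0.35), without LA replicate 2 of 12 h for Npm1 (−0.67) and Nop56 (0.35), and without LA replicate 1 of 8 h for Nop56 (0.43).

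Sequence-specific RNA-binding proteins, the class of Ptbp3 and Rbms1, had 6 of 18 higher with CLA at 12 h, 3 lower and 9 not called, with a median of 0.20. Qk (quaking, a regulator of splicing and messenger RNA stability) was 1.62-fold higher (0.69 ± 0.10, adjusted p = 0.00143), with 1023 ± 12.1 in LA and 1655 ± 36.3 in CLA. Pum2, a translational repressor of the Pumilio family, was 1.79-fold higher (0.84 ± 0.12, adjusted p = 0.00174). Mbnl1 (muscleblind, a splicing regulator) was 1.80-fold higher (0.85 ± 0.14, adjusted p = 0.00281). The change of the difference from 8 h to 12 h was called for Pum2 (0.84 ± 0.18, adjusted p = 0.0492). It was the 1 call among the 112 related genes, against 1.17% of all genes. That call was lost under 13 of 22 alternatives, and it uses the 12 h difference by which Pum2 was named. All 3 fell in LA from 8 h to 12 h, Qk by 0.69 (adjusted p = 0.00101), Pum2 by 1.12 (adjusted p = 0.000298) and Mbnl1 by 0.86 (adjusted p = 0.00201).

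La-related and poly(A)-binding proteins, the class of Larp4, had 2 of 13 higher with CLA at 12 h and 0 lower, with a median of 0.05. Ssb, the La protein itself, was 2.30-fold higher (1.20 ± 0.33, adjusted p = 0.0304), though its replicates were wide apart, at 385 and 582 in LA and 807 and 1478 in CLA. The call was lost without LA replicate 1 (1.499) or 2 (0.91) or CLA replicate 1 (0.77) of 12 h. Eif4e, the cap-binding translation factor, was 1.35-fold higher (0.43 ± 0.13, adjusted p = 0.0413), a call lost under 11 of 22 alternatives, among them the mean of its probe sets (0.08, adjusted p = 0.697), median scaling (0.31), leaving out LA replicate 2 (0.25) or CLA replicate 1 (0.31) of 12 h, and leaving out any 1 of the CLA arrays of 4 h or LA arrays of 8 h (0.43). Larp6 differed by −0.59 ± 0.22 and was not called (adjusted p = 0.0782).

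In the list of CCR4-NOT, deadenylation and decapping genes, the class of Cnot6, 2 of 23 were higher with CLA at 12 h, 1 was lower and 20 were not called, with a median of −0.10. Cnot7, another deadenylase of the complex, was 1.60-fold higher (0.68 ± 0.16, adjusted p = 0.0152), and Dcp2, the decapping enzyme, was 1.58-fold higher (0.66 ± 0.10, adjusted p = 0.00208). Cnot11, a subunit of the same complex, was lower (−0.55 ± 0.12, adjusted p = 0.00995), at 509.7 ± 29.6 in LA and 347 ± 29.8 in CLA. With a mean over all probe sets of a gene, Dcp2 was at −0.03 and Cnot11 at 0.07, so these values hold for the brightest probe set only. The call for Cnot7 was lost without any 1 of the arrays of 12 h (0.64 to 0.72), and that for Cnot11 without LA replicate 2 (−0.50) or CLA replicate 1 (−0.47) of 12 h and with values as deposited (−0.13).

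Super elongation complex and other RNA polymerase II elongation genes, the class of Aff4, had 3 of 22 higher with CLA at 12 h, 2 lower and 17 not called, with a median of −0.15, equal to that of all genes. Mllt3 (AF9), a partner of Aff4 in the super elongation complex, was 2.58-fold higher (1.37 ± 0.20, adjusted p = 0.00175), at 34.2 ± 8.89 in LA and 89.96 ± 8.46 in CLA. Cdc73, of the PAF1 complex, was 1.33-fold higher (0.41 ± 0.10, adjusted p = 0.0216). Nelfe, a subunit of the negative elongation factor, was lower (−0.59 ± 0.12, adjusted p = 0.00892). The call for Nelfe was lost without LA replicate 2 of 12 h (−0.58) and with values as deposited (−0.21), and that for Cdc73 without LA replicate 1 (0.38) or 2 (0.45) or CLA replicate 2 (0.34) of 12 h and after median scaling (0.39). With the mean of its probe sets Cdc73 was at 1.598.

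Among long non-coding RNAs, the class of Tug1, 1 of 11 was called higher with CLA at 12 h and 0 lower, with a median of 0.18. Gas5, a host of small nucleolar RNAs, was 1.52-fold higher (0.61 ± 0.17, adjusted p = 0.0319). Malat1, a nuclear-retained RNA, differed by 0.91 ± 0.30 and was not called (adjusted p = 0.0564), though it was under 8 of 22 alternatives, median scaling among them. It fell in LA from 8 h to 12 h by 1.39 (adjusted p = 0.0089). Snhg1, another small nucleolar RNA host, differed by 0.31 ± 0.13 (adjusted p = 0.127). The call for Gas5 was lost without LA replicate 1 (0.76) or 2 (0.45) or CLA replicate 1 (0.41) of 12 h, and without either LA array of 8 h (0.61). That for Malat1 in LA was lost without LA replicate 1 (−1.02) of 12 h or replicate 1 (−1.395) or 2 (−1.39) of 8 h.

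**Figure D5:**
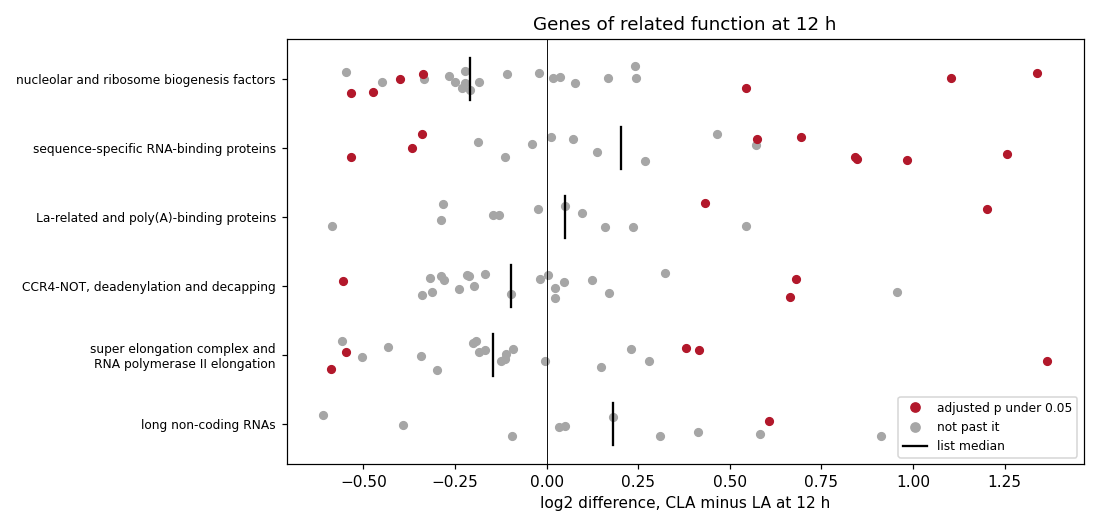
Log2 difference between CLA and LA at 12 h for the 112 measured genes of the 6 related lists, 1 point a gene, in red where the adjusted p in limma was under 0.05, with the list median as a vertical bar. With this scaling, called genes lie on both sides of 0 in 4 of the 6 lists, and the list medians run from −0.21 to 0.20.

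The genes whose pattern over the 11 arrays was most like the mean standardised profile of the 7 were Rabep1, Suz12, Golm2, Nek7, Ireb2, Zbtb33, Hipk3 and Vcan, with Pearson r from 0.995 down to 0.991. The choice of these 8 depended on the processing: 6 of them were among the 8 highest with cyclic loess, 5 after median scaling and 1 when all probe sets of each gene were averaged, where their lowest r was 0.786. Such values rest largely on the LA arrays of 12 h, and over the other 9 arrays r was between 0.82 and 0.93 for these 8. Vcan, the matrix proteoglycan versican, had mean intensities at 4, 8 and 12 h of 2660, 2431 and 1018 with LA, and of 2630, 2629 and 2397 with CLA. Suz12, a subunit of the Polycomb repressive complex PRC2, had 320.1, 279 and 97.5 in LA and 336, 310.0 and 276 in CLA. Ireb2, an iron-responsive RNA-binding protein, had 408, 391 and 202 in LA and 448, 429 and 401 in CLA. In all, 254 genes other than the 7 had r above 0.95 and 588 above 0.90.

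The members themselves had r of 0.934 (Rbms1) to 0.996 (Aff4) with their own mean profile. Over the 9 arrays without LA at 12 h, r was 0.79 to 0.92 for 6 of them and 0.17 for Rbms1. All arrays share the normalisation and each member is part of the mean, so these values describe likeness only.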

How the data were processed

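RNA was extracted with Trizol, and biotinylated cRNA was hybridised to 1-colour Affymetrix arrays, per the labels' protocols. The deposited value table holds 1 linear intensity per probe set and array. Which software the authors used is not stated in the labels or headers. They were taken as background-subtracted, since 18.7% to 21.5% of each array's values were at or below 0, and as not scaled between arrays. The authors' ratio tables, Rosetta Resolver output by their names, give a log10 ratio and a p-value per probe set, combining the replicates of a time, per the file headers. How the p-value was made is not stated there. Their log10 ratios were taken as CLA over LA because they correlated across genes with CLA minus LA (r of 0.651, 0.677 and 0.819 at 4, 8 and 12 h).

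Intensities were quantile normalised over 11 arrays, set to at least 0 and taken as log2(value + 1.84), the offset being the 25th percentile. Log2 differences understate changes of dim genes. Probe sets with a mean above 7.81 (40th percentile) and 1 gene symbol were kept, and each gene was read by its brightest probe set on average. Of 45037 probe sets other than the 64 controls, 34945 had 1 symbol, 932 several and 9160 none. Of those with 1 symbol, 34754 matched a table of mouse genes of GRCm38.p6 by Entrez ID, used for names only.

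Tests used limma 3.58.1 in R 4.3.3, with 6 group means, an intensity trend, 5 residual and 6.10 prior degrees of freedom, with p-values adjusted by Benjamini-Hochberg over 12428 genes and a threshold of 0.05. For the lone LA array of 4 h, the spread was borrowed from the other groups. Fits were run on simulated data with independent noise and no shift of whole arrays, which checks the code and not the calls made here. Replicates correlated at r of 0.970 to 0.978 over genes, and 0 pairs of arrays held identical values. The number of arrays limits the precision.

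The members and the related lists were chosen with earlier results of these data known. Named from each related list were up to 3 genes with the smallest p between CLA and LA at 12 h, and by likeness the 8 genes with the highest r. The alternatives were other scalings, offsets, filters and probe set rules, no trend, fewer groups, a replicate block and each array left out. Figures were drawn with matplotlib 3.10.9.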

Additional observations from a re-analysis of the deposited data

Results flagged for a closer look

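Pum2 was the 1 named related gene whose difference between CLA and LA changed from 8 h to 12 h by the test of that change. The change was 0.84 ± 0.18 SE on the log2 scale (limma, adjusted p = 0.0492), and 1.17% of all genes passed that test. Of the 112 related genes, 1 was called higher and 0 lower by it, so nothing is read from the count. Pum2 was named for its small p between CLA and LA at 12 h, a difference that the test of the change uses again. Pum2 gave 623 and 660.4 in LA and 608 and 679 in CLA at 8 h, and 276 and 312 in LA and 468 and 595 in CLA at 12 h. Both CLA arrays of 12 h were above both LA arrays of 12 h, and at 8 h the groups overlapped. The call was lost under 13 of 22 alternatives, with an adjusted p between 0.0233 and 0.276 over all of them. Among these, it was lost without any 1 of the arrays (0.67 to 0.93) except LA at 4 h, CLA replicate 1 of 8 h and CLA replicate 2 of 12 h.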

How the results depend on the processing

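All 7 genes kept both LA arrays of 12 h below the rest under 18 of 18 alternatives. The genes were chosen on this pattern, with median scaling as a check, so it stays a description. Their median difference was 1.41 between CLA and LA at 12 h and −1.49 from 8 h to 12 h in LA with values as deposited, and 0.91 and −0.96 when the probe sets of a gene were averaged. Leaving out each array in turn gave 0.99 to 1.08 and −1.23 to −1.09. The median of all genes between CLA and LA at 12 h was −0.15 after quantile normalisation, −0.17 after median scaling and 0.28 as deposited, and the 7 genes' median lay 1.12 to 1.24 above it under all scalings. Called genes at 12 h were 1176 higher and 1159 lower, against 949 and 363 after median scaling and 1920 and 10 as deposited. Those from 8 h to 12 h in LA were 1364 and 1411, against 532 and 1064, and 32 and 1753. The related genes split 17 to 10 at 12 h (16 to 5 after median scaling, 30 to 0 as deposited) and 12 to 20 in LA (3 to 17 and 0 to 28).

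Of the 7 genes, 0 were called between CLA and LA at 4 h under 21 alternatives or at 8 h under 22. The number above 0 ranged from 2 to 6 at 4 h, 2 to 7 at 8 h, 0 to 5 from 4 h to 8 h in LA, 1 to 4 in CLA and 0 to 4 from 8 h to 12 h in CLA, so these directions depend on the processing. From 4 h to 8 h in LA the count of calls was 1 with only the groups of the contrast, and 0 to 1 over the arrays left out (1 without either CLA array of 8 h). From 4 h to 8 h in CLA it was 0 with median scaling, values as deposited, no filter, the mean of probe sets, no trend or only the groups of the contrast. It was 0 to 2 over the arrays left out, with 0 without either CLA array of 4 h and 2 without CLA replicate 1 of 8 h. Those 2 were not Rbms1 but Ncl (−0.33, adjusted p = 0.0129) and Cnot6 (−0.34, adjusted p = 0.0314), both lower at 8 h. From 8 h to 12 h in CLA it was 0 to 1 over the arrays left out.

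Calls among related genes between CLA and LA at 12 h (27) were 17 with no filter, 14 with no trend and 9 to 38 over the arrays left out (14 and 9 without LA replicate 1 or 2 of 12 h, 17 without CLA replicate 1 of 12 h). From 8 h to 12 h in LA (32) they were 20 with median scaling, 18 with no filter, 16 with no trend, 50 with only the groups of the contrast and 6 to 44 over the arrays left out (12 and 6 without LA replicate 1 or 2 of 8 h, 13 and 12 without those of 12 h). The cause of these shifts was not tested. The sign turned, with the mean of probe sets, for Cnot11 (0.0696 at 12 h, −0.16 in LA from 8 h to 12 h) and Dcp2 (−0.0269 at 12 h), and with median scaling for Snhg1 in LA (0.00805). Counts over all genes ranged from 0 to 70 at 4 h, 0 to 14 at 8 h, 706 to 3261 at 12 h, 456 to 3229 from 4 h to 8 h in LA, 724 to 1971 in CLA, 797 to 4062 from 8 h to 12 h in LA and 1 to 103 in CLA.

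Deviations from the group mean in LA and CLA arrays of the same replicate number correlated at 0.01 at 8 h and 0.07 at 12 h. With so few arrays in a group, this cannot exclude that replicate numbers pair the arrays. With a replicate block shared over times, 1 member was called from 4 h to 8 h in CLA, Rbms1 at an adjusted p of 0.0289, and with a block within each time at 0.0200. No alternative was added after the data were seen.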
